A study of Mus musculus with 11 samples.

Results

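The interleukin-12 family subunit genes Il12a, Il23a, Il27, Il12b and Ebi3 were measured in macrophages grown from mouse bone marrow. They were chosen as the probe sets whose platform annotation gives exactly 1 of these symbols, which gave 1 probe set for each, so 5 of the 18755 genes tested belong to the family. All cells came from wild-type C57Bl/6 mice and were grown for 1 week with 5 ng/ml macrophage colony-stimulating factor (mCSF), then used 24 hours after replating. In the first group 100 ng/ml lipopolysaccharide (LPS, from the outer membrane of Gram-negative bacteria and recognised by Toll-like receptor 4) and 10 µM prostaglandin E (PGE, a lipid mediator) were given together for 1 hour. The second group had the same dose of LPS alone for 1 hour, and the third was left untreated. There were 4 LPS plus PGE arrays, 3 LPS arrays and 4 untreated arrays, the authors having left 1 LPS array out for quality. Which prostaglandin E this was is not stated, and neither is whether replicates came from different mice or cultures. The p-values therefore set differences between groups against the spread between these samples only, which may not be independent mice or cultures. The series made 12 arrays, 4 for each of these groups, and none had PGE alone. The effect of PGE without LPS can therefore not be read from this design.

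The family's cytokines are pairs of a helical (alpha) chain and a receptor-like (beta) chain, and the same chains serve in more than 1 cytokine. Il12a (p35) with Il12b (p40) makes interleukin-12, which drives interferon-gamma production by T and NK cells. Il23a (p19) with Il12b makes interleukin-23, which sustains interleukin-17-producing T cells. Il27 (p28) with Ebi3 makes interleukin-27, which can both promote and restrain T cell responses, and Il12a with Ebi3 makes interleukin-35. Macrophages and dendritic cells sensing microbes are main sources of these cytokines, and prostaglandin E is known to act on such cells through receptors that raise cyclic AMP.

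Levels are the log2 expression values that the authors deposited, where 1 unit means a 2-fold change. Array medians over all probe sets lay between 5.03 and 5.18 and lower quartiles between 3.61 and 3.76. Arrays of the same group correlated across genes at 0.996 to 0.998, genes not being independent replicates. Of 12 macrophage markers, 11 averaged above the array median in each group. Adgre1, Csf1r and Cd68 averaged 12.45, 12.53 and 12.79 in LPS plus PGE arrays. In LPS arrays they averaged 12.38, 12.48 and 12.68, and in untreated arrays 12.51, 12.54 and 12.78. Marco lay lower, at 4.89, 4.52 and 4.62 in those groups. Cd14 (2.22) and Emilin2 (0.32) passed as higher in LPS plus PGE against untreated, and Cd14 (1.64) and Msr1 (0.29) in LPS against untreated. In LPS plus PGE against LPS Cd14 was higher (0.59) and Msr1 lower (-0.30). The other 10 did not pass in each comparison. Of 13 dendritic cell markers, 7 lay above the array median in each group, while Clec9a and Xcr1 averaged 3.23 and 3.70 in LPS plus PGE, 3.38 and 3.61 in LPS and 3.24 and 3.67 in untreated arrays, on average below the lower quartile. Of these markers 4 passed as higher in LPS plus PGE against untreated, namely Ccr7 (0.75), H2-Eb1 (0.44), Zbtb46 (0.30) and H2-Ab1 (0.25), and Ciita, the class II transactivator gene, passed as lower (-0.61), with 3 to 6 higher under other scalings. In LPS against untreated 2 passed as higher, H2-Eb1 (0.39) and Cd209a (0.37), and none as lower. Ccr7 (0.66) was the 1 that passed as higher in LPS plus PGE against LPS, and Ciita (-0.87) and Cd209a (-0.31) passed as lower. Beside both marker lists, 13.8% of all genes passed as higher and 17.9% as lower in LPS plus PGE against untreated. The shares were 6.55% and 6.69% in LPS against untreated, and 11.9% and 12.9% in LPS plus PGE against LPS. The marker counts are therefore not read as a change in cell types. The log2 of the summed level of these 13 markers was 13.32 to 13.38 in LPS plus PGE, 13.26 to 13.33 in LPS and 13.08 to 13.28 in untreated arrays. Their part in the changes below was not tested, and in bulk RNA more transcript per cell and more cells of a type cannot be told apart.

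Promoter sequences are shown for the members that RefSeq's GRCm38.p6 table holds, because these genes range from strongly changed (Il12b) through slightly changed (Ebi3) to not passing (Il12a). They are the 250 bases before the annotated start, all on the plus strand. Il12b is on chromosome 11 (chr11:44399813-44400062), Ebi3 on chromosome 17 (chr17:55952373-55952622), and Il12a on chromosome 3, with 2 annotated starts (chr3:68690394-68690643 and chr3:68691174-68691423). No build for the arrays' own annotation was taken from the sources used here. Capitals mark matches, on either strand, to the ETS core GAGGAA, which the macrophage factor PU.1 can bind, or to the NF-kB-like motif GGGNNNNNCC.
Il12b: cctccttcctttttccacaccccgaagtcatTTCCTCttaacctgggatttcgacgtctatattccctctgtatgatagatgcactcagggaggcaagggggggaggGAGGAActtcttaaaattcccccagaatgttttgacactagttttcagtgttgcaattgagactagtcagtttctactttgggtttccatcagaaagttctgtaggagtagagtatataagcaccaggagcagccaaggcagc
Ebi3: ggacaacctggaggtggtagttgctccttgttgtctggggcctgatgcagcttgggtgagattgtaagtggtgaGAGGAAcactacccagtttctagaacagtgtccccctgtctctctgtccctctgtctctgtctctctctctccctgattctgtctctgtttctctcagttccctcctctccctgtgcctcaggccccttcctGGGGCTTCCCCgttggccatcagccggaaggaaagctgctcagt
Il12a, first start: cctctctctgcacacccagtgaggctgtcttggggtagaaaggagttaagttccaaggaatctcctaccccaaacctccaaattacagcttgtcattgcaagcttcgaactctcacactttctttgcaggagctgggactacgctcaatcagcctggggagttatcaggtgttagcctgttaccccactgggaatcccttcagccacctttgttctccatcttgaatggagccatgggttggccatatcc
Il12a, second start: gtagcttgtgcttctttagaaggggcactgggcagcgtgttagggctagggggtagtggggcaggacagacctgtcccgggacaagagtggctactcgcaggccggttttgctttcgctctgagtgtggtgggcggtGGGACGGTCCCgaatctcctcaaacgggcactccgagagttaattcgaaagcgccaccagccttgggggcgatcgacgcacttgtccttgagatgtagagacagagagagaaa
The Il12b window held 2 ETS core matches, 143 and 219 bases before the start, and the Ebi3 window held 1, 176 bases before it. This core was found in 23.3% of 32851 promoter windows of the same length. The NF-kB-like motif, present in 45.8% of the windows, matched 4 times in 1 stretch of Ebi3 (overlapping matches starting 43 and 44 bases before the start, on both strands) and 2 times in 1 stretch before the second start of Il12a (112 and 113 bases before it). The windows of Il12b and of the first start of Il12a held no match to this motif as written, which does not show that NF-kB cannot bind there. A search for the C/EBP motif TTNNGCAA (9.56% of windows), the interferon regulatory factor motif GAAANNGAAA (2.98%), the AP-1 motif TGANTCA (6.75%), the cyclic AMP response element TGACGTCA (1.55%) and the TATA box TATAAA (12.4%) found these letters in none of the 4 windows, which says nothing about binding of the factors.

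Within 1 hour the family did not move as a block. With LPS alone Il23a, Il27 and Il12b were higher than in untreated cells. The untreated levels of Il23a and Il12b lay below the array median and, with no background measured, were not told from none. Il12a did not pass with LPS alone, and Ebi3 passed there only under some alternatives, the replicate block among them. With PGE added, Il23a was 4.35-fold higher than with LPS alone, whereas Il12b was 2.71-fold lower. Il27 was 1.64-fold lower, a call lost under some of the alternatives given below. The log2 fold changes ± SE below come from limma's moderated test over all 11 arrays, with p-values adjusted over all 18755 genes, and a gene passed at an adjusted p under 0.05.

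**Figure D1:**
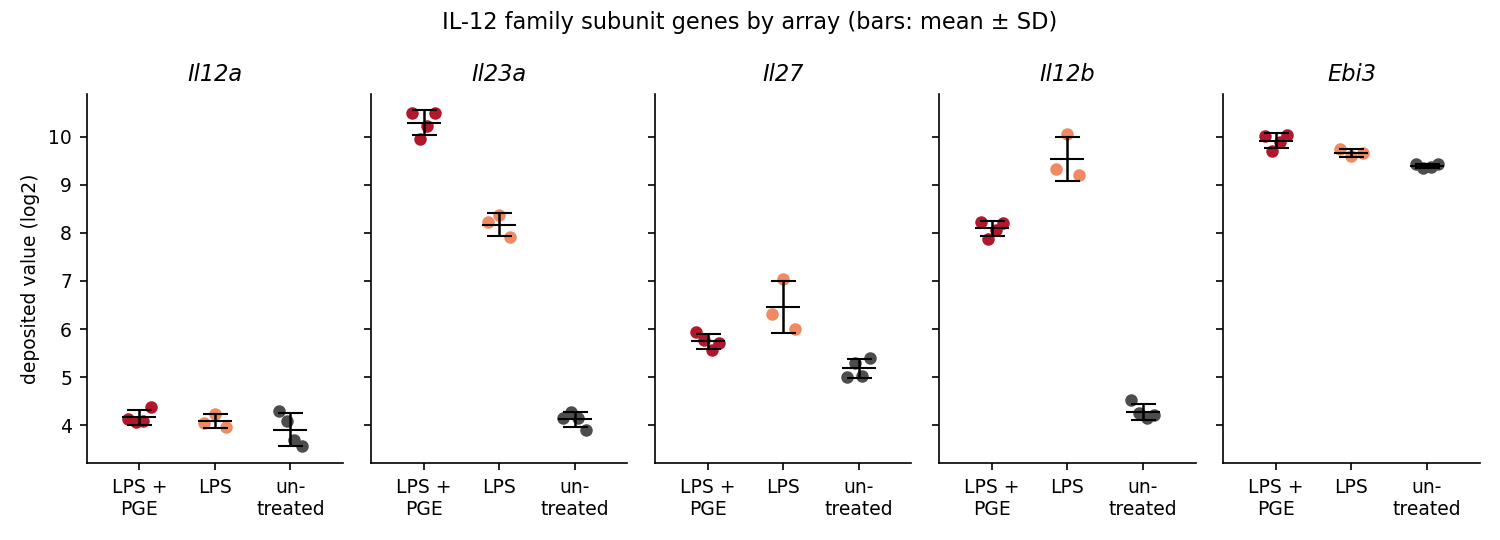
Deposited log2 value of each subunit gene in every array, with LPS plus PGE, LPS and untreated arrays from left to right in each panel; points are arrays and bars are the mean ± SD. Il23a is highest in the LPS plus PGE arrays (9.96 to 10.50), Il12b and Il27 are highest in the LPS arrays, and Il12a overlaps between all groups.

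Il23a, the chain particular to interleukin-23, read 10.50, 9.96, 10.22 and 10.49 in the 4 LPS plus PGE arrays, 8.23, 8.37 and 7.91 in the 3 LPS arrays and 4.15, 4.27, 4.15 and 3.91 in the 4 untreated arrays. Every LPS plus PGE array was above every LPS array, and every LPS array above every untreated one. LPS plus PGE against untreated was 6.17 ± 0.13 (72.2-fold, 95% interval 58.9 to 88.5), LPS against untreated 4.05 ± 0.15 (16.6-fold, 13.3 to 20.7) and LPS plus PGE against LPS 2.12 ± 0.15 (4.35-fold, 3.49 to 5.43). The limma adjusted p-values were 6.24e-12, 1.28e-09 and 2.75e-06. The untreated level lay between the lower quartile and the median of the array on all 4 arrays. No background was measured here, so a level this low was not told from none, and the folds against untreated depend on it.

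Il27, the p28 chain of interleukin-27, read 5.93, 5.77, 5.56 and 5.71 in LPS plus PGE arrays, 6.31, 7.05 and 6.01 in LPS arrays and 5.00, 5.29, 5.03 and 5.40 in untreated arrays. The groups did not overlap, but the lowest LPS array and the highest LPS plus PGE array were only 0.09 apart, and LPS replicate 2 stood above the other two LPS arrays. Il27 passed as higher in LPS plus PGE against untreated (0.56 ± 0.18, limma adjusted p = 0.0365) and in LPS against untreated (1.28 ± 0.20, or 2.42-fold, adjusted p = 0.000977), and as lower in LPS plus PGE against LPS (-0.71 ± 0.20, adjusted p = 0.0242). Without LPS replicate 2 the last difference was -0.42 (limma adjusted p = 0.0535), and without LPS plus PGE replicate 3 it was -0.65 (adjusted p = 0.0574), so neither passed. With quantile and cyclic loess normalization the adjusted p-values were 0.0683 and 0.0537. The call against untreated for LPS plus PGE was lost without any 1 of 5 arrays (LPS plus PGE replicates 1, 2 and 4, untreated replicates 1 and 3), with limma adjusted p-values up to 0.0962. The untreated level of Il27 lay near the array median, below it on 2 of 4 arrays. No background was measured, so its folds against untreated depend on that level.

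Il12a, the p35 chain shared by interleukin-12 and interleukin-35, read 4.13, 4.06, 4.08 and 4.38 in LPS plus PGE arrays, 4.05, 4.24 and 3.97 in LPS arrays and 4.29, 4.09, 3.70 and 3.56 in untreated arrays. All 3 groups overlapped, every value lay below the array median, and 2 untreated values lay below the lower quartile. None of its changes passed, at 0.25 ± 0.14 for LPS plus PGE against untreated (95% interval -0.06 to 0.57, limma adjusted p = 0.199), 0.18 ± 0.16 for LPS against untreated (-0.16 to 0.52, adjusted p = 0.528) and 0.08 ± 0.16 for LPS plus PGE against LPS (-0.26 to 0.42, adjusted p = 0.744). The intervals reach at most 0.57, less than a 2-fold rise, in these values. Without untreated replicate 1 the first of these passed, at 0.38 (limma adjusted p = 0.0472).

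Of the receptor-like chains, Il12b, the p40 chain shared by interleukin-12 and interleukin-23, read 8.23, 7.87, 8.07 and 8.20 in LPS plus PGE arrays, 9.33, 10.06 and 9.21 in LPS arrays and 4.52, 4.25, 4.14 and 4.22 in untreated arrays. All LPS plus PGE arrays lay below all LPS arrays, with a gap of 0.97 between the groups, and both lay far above untreated. LPS plus PGE against untreated was 3.81 ± 0.16 (14.1-fold, 95% interval 11.0 to 18.0, limma adjusted p = 5.07e-09), and LPS against untreated was 5.25 ± 0.18 (38.1-fold, 29.1 to 49.8, adjusted p = 7.49e-10). With PGE the level was lower than with LPS alone (-1.44 ± 0.18, or 2.71-fold, 95% interval 2.07 to 3.54, limma adjusted p = 0.000323). LPS replicate 2 was again the highest LPS array, and without it that difference was -1.17 (adjusted p = 0.000194). As with Il23a, the untreated level lay between the lower quartile and the median of the array on all 4 arrays. Its folds against untreated thus depend on a level not told from none.

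Ebi3, the receptor-like chain of interleukin-27 and interleukin-35, read 10.02, 9.70, 9.89 and 10.04 in LPS plus PGE arrays, 9.74, 9.59 and 9.66 in LPS arrays and 9.43, 9.35, 9.36 and 9.44 in untreated arrays. It was well above the array median before any treatment, and its groups moved by less than 1 on the log2 scale. LPS plus PGE against untreated passed at 0.52 ± 0.08 (1.43-fold, limma adjusted p = 0.000292), and LPS against untreated did not, at 0.27 ± 0.08 (adjusted p = 0.0515). With the replicate number as a block the LPS change was 0.30 and passed (limma adjusted p = 0.0206), as it did with equal array medians, cyclic loess, trend and robust variance, the 2 groups alone or dim genes left out, and without LPS plus PGE replicate 2 or 4. LPS plus PGE against LPS passed narrowly, at 0.25 ± 0.08 (1.19-fold, limma adjusted p = 0.0445), with 1 LPS plus PGE array (9.70) below the highest LPS array (9.74). That last call was lost in 10 of the 11 fits that each left out 1 array (adjusted p up to 0.12, kept only without LPS plus PGE replicate 2), while the change itself stayed between 0.21 and 0.32. It was also lost with equal array medians, array weights, the 2 groups alone and all probe sets (limma adjusted p = 0.0683 to 0.0977).

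Counted together, 4 of the 5 members passed as higher in LPS plus PGE against untreated, and none as lower, where 13.8% of all genes passed as higher, 17.9% as lower and 31.7% in either direction. In LPS against untreated 3 of the 5 passed as higher (4 with the replicate block) and none as lower, where 6.55% of all genes passed as higher, 6.69% as lower and 13.2% in either direction. In LPS plus PGE against LPS, 2 passed as higher (Il23a and Ebi3) and 2 as lower (Il12b and Il27), the calls of Ebi3 and Il27 being lost under the alternatives given above, where 11.9% of all genes passed as higher, 12.9% as lower and 24.7% in either direction. Most members thus passed in each comparison, and in the last they went both ways. Passing with at least 2-fold change, Il23a and Il12b were higher in LPS plus PGE against untreated, where 1.86% of all genes were higher, 1.11% lower and 2.97% either. At the same size Il23a, Il12b and Il27 were higher in LPS against untreated, where 1.57% of all genes were higher, 0.363% lower and 1.93% either. In LPS plus PGE against LPS, Il23a was higher and Il12b lower at that size, where 0.565% of all genes were higher, 0.149% lower and 0.714% either. Arrays of the 2 groups did not overlap for 4 members in each comparison with untreated, as for 35.1% of all genes with LPS plus PGE and 23.1% with LPS. Between LPS plus PGE and LPS they did not overlap for 3 members, 1 higher (15.5% of all genes) and 2 lower (18.3%), and 33.9% of all genes did not overlap either way. The comparisons with untreated share the 4 untreated arrays, the 2 with LPS alone in them share the 3 LPS arrays, and the 2 with PGE share the 4 LPS plus PGE arrays.

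**Figure D2:**
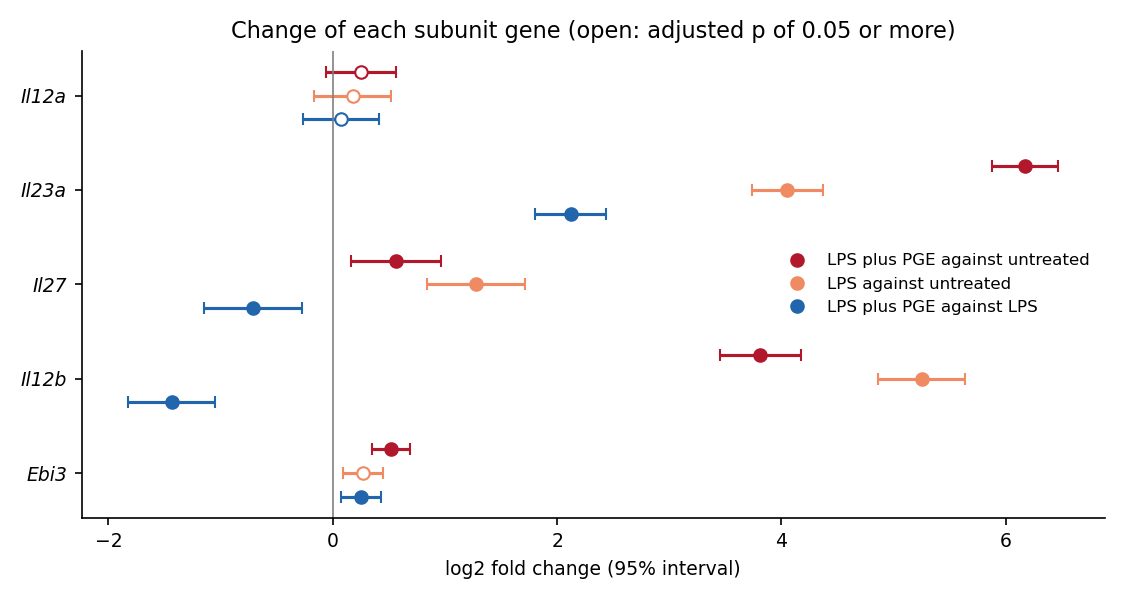
Log2 fold change of each subunit gene with its 95% interval for LPS plus PGE against untreated, for LPS against untreated, and for LPS plus PGE against LPS alone; open points did not pass. The last comparison is positive for Il23a (2.12) and Ebi3 (0.25), negative for Il12b (-1.44) and Il27 (-0.71), and its interval spans 0 for Il12a.

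The balance between chains was followed array by array, after setting each gene to its own untreated mean. The change of Il23a minus that of Il12b was 2.25 to 2.46 in LPS plus PGE arrays, -1.53 to -0.93 in LPS arrays and -0.21 to 0.19 in untreated arrays. The difference was above 0 in every LPS plus PGE array and below 0 in every LPS array. Its place relative to 0 depends on untreated levels of both genes that were not told from none, whereas the distance between LPS plus PGE and LPS arrays does not use those levels. This is a difference between changes, not a ratio of transcript numbers, since levels of different probe sets are not on 1 scale. For Il12a, the other partner of Il12b shown here, the change of Il12a minus that of Il12b was -3.73 to -3.44 in LPS plus PGE arrays. It was -5.45 to -4.87 in LPS arrays and -0.29 to 0.21 in untreated arrays. As fitted, Il12a passed in no comparison, and it lay below the array median on every array. This difference therefore mostly repeats the change of Il12b, and its size relative to 0 depends on untreated levels not told from none.

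The change of Il27 minus that of Il12b was -3.41 to -3.00 in LPS plus PGE arrays, -4.09 to -3.91 in LPS arrays and -0.42 to 0.28 in untreated arrays. LPS plus PGE arrays all lay above LPS arrays on this measure, and its size relative to 0 again depends on the low untreated level of Il12b. Of the interleukin-27 chains, the change of Il27 minus that of Ebi3 was -0.11 to 0.28 in LPS plus PGE arrays, 0.57 to 1.67 in LPS arrays and -0.22 to 0.18 in untreated arrays. On that measure LPS plus PGE arrays overlapped untreated ones and LPS arrays stood above both. Its size relative to 0 depends on the untreated level of Il27, which lay near the array median. These differences are given as a description with no test.

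**Figure D3:**
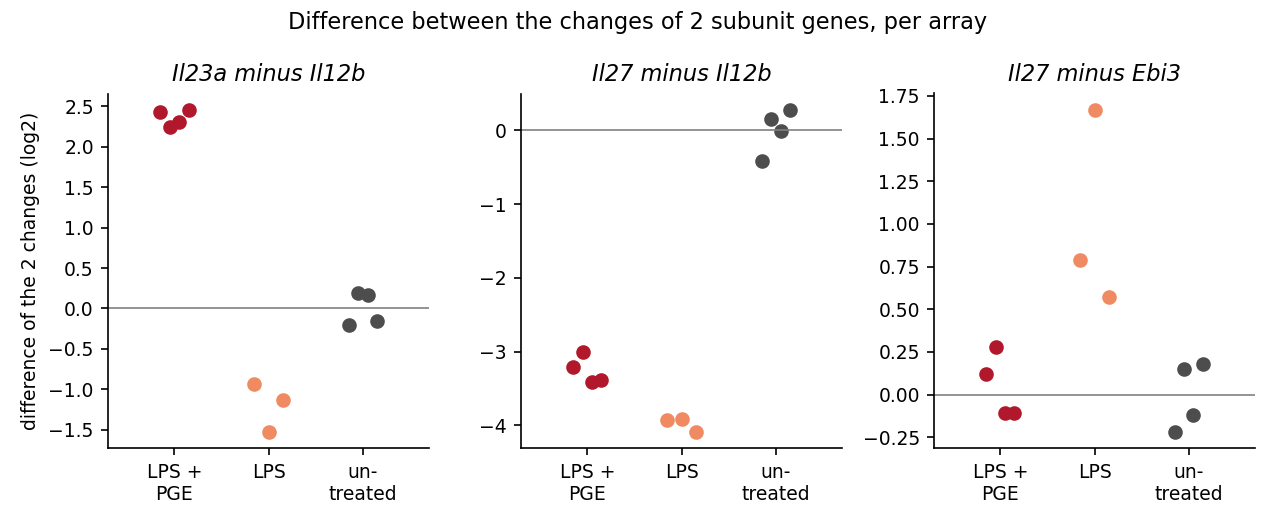
Change of one subunit gene minus that of another in each array (log2, each gene set to its untreated mean), with LPS plus PGE, LPS and untreated arrays from left to right. Il23a minus Il12b is above 0 in all 4 LPS plus PGE arrays (2.25 to 2.46) and below 0 in all 3 LPS arrays (-1.53 to -0.93).

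The genes whose profile over the 11 arrays lay nearest to a member, by the root mean square difference of values set to the untreated mean, were taken for the 3 members that changed at least 2-fold. Nearest to Il23a was the orphan nuclear receptor gene Nr4a1, at 0.29, with changes of 5.96 in LPS plus PGE and 3.88 in LPS arrays, followed by the plasminogen activator gene Plat (0.58) and by Phlda1 (0.58). Nearest to Il12b were the chemokine gene Ccl4, at 0.33, with changes of 3.92 in LPS plus PGE and 4.73 in LPS arrays, then Tnf (0.51) and the NF-kB feedback inhibitor gene Tnfaip3 (0.64). Tnfaip3 changed by 4.33 in LPS plus PGE and 4.30 in LPS arrays, so at that distance the drop with PGE seen for Il12b was not shared. Nearest to Il27 were Arhgef3 (0.24), the kinase gene Dyrk2 (0.25) and the matrix metalloproteinase gene Mmp14 (0.26), all with changes of 0.60 to 0.67 in LPS plus PGE and 1.10 to 1.17 in LPS arrays.

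Among other cytokines with effects on T and NK cells, 7 of 10 were higher in LPS plus PGE against untreated. In LPS against untreated 7 of 10 were also higher, and none was lower in either comparison. Over all genes 13.8% passed as higher and 17.9% as lower in the first comparison, and 6.55% and 6.69% in the second. The list medians were 3.62 and 3.63 beside all-gene medians of 0.02 and -0.01. The largest measured rises in LPS plus PGE were those of Il1a (7.72 ± 0.20), Il6 (7.33 ± 0.12), Il1b (7.33 ± 0.14) and Il10 (7.23 ± 0.13). In LPS alone those named by the same rule were Il1a (7.30 ± 0.21), Il1b (6.87 ± 0.15), Il10 (5.36 ± 0.14) and Tnf (4.51 ± 0.07). Untreated Il1a, Il6 and Il10 lay below the array median on all 4 arrays (Il6 below the lower quartile, at 3.57), so the sizes of these rises and their order depend on levels not told from none. In LPS plus PGE against LPS, Il6 (3.68 ± 0.13) and the anti-inflammatory cytokine Il10 (1.88 ± 0.14) were higher, as Il23a was, with limma adjusted p-values of 5.09e-09 and 4.15e-06. Tnf was lower (-0.33 ± 0.07, limma adjusted p = 0.00924), as Il12b was, and Ifnb1, which encodes interferon-beta, was lower at -0.54 ± 0.15 (adjusted p = 0.0219), a call that was lost with quantile normalization and without LPS replicate 2 or 3 or LPS plus PGE replicate 4. Il1b passed narrowly (0.46 ± 0.15, limma adjusted p = 0.0414) and lost that call in 11 of 21 alternatives. The other 5 did not pass, and the list median was 0.01. Over all genes 11.9% passed as higher and 12.9% as lower in LPS plus PGE against LPS.

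The receptor chains were measured for 4 of 5 genes. Over all genes 24.7% passed in LPS plus PGE against LPS and 13.2% in LPS against untreated. In LPS plus PGE against untreated 31.7% passed. With only 4 genes, the receptor counts below are not read as a result about the receptors. No receptor gene passed in LPS plus PGE against LPS (with equal array medians 1 was lower) or in LPS against untreated (1 or 2 were higher with another scaling), and in LPS plus PGE against untreated Il6st, the gp130 chain used by interleukin-27, was lower (-0.27 ± 0.07, limma adjusted p = 0.0123), a call lost with equal array medians or cyclic loess normalization. Il12rb2, the signalling chain of the interleukin-12 receptor, averaged 8.33 ± 0.10, 8.53 ± 0.02 and 8.34 ± 0.08 (SD) in 4 LPS plus PGE, 3 LPS and 4 untreated arrays. Il27ra averaged 6.91 ± 0.14, 7.08 ± 0.08 and 6.75 ± 0.19 in those groups. Il23r stayed below the lower quartile on all 11 arrays, at 3.21 ± 0.09, 3.27 ± 0.41 and 3.03 ± 0.22. As deposited Il27ra did not pass in LPS against untreated (limma adjusted p = 0.0679). In 6 of 21 alternatives it passed there as higher, each other scaling among them. It also passed as higher in LPS plus PGE against untreated with quantile normalization. Il12rb2 did not pass in LPS plus PGE against LPS (-0.20, limma adjusted p = 0.0585). There it passed as lower in 4 of 21 alternatives, equal array medians among them.

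Of 5 measured kinases and STAT factors that these receptors use, Jak2 was higher in LPS plus PGE against untreated (1.37 ± 0.12, limma adjusted p = 4.07e-06) and against LPS (1.00 ± 0.13, adjusted p = 0.000449). Jak2 did not pass in LPS against untreated (0.37 ± 0.13, limma adjusted p = 0.0898), but did so in 4 of 21 alternatives, equal array medians among them. Tyk2, the kinase bound by the shared interleukin-12 and interleukin-23 receptor chain, was lower in LPS plus PGE against LPS (-0.30 ± 0.07, limma adjusted p = 0.00932) and against untreated (-0.23 ± 0.06, adjusted p = 0.0169), the first call being lost after cyclic loess normalization and the second also after quantile normalization and with equal medians. Over all genes 11.9% passed as higher and 12.9% as lower in LPS plus PGE against LPS. The shares were 13.8% and 17.9% in LPS plus PGE against untreated, and 6.55% and 6.69% in LPS against untreated. Jak1, Stat3 and Stat4 passed in none of the 3 comparisons as fitted. Stat4 (0.31, limma adjusted p = 0.0595 in LPS plus PGE against untreated, and 0.32, adjusted p = 0.123 in LPS against untreated) passed in 6 and 3 of 20 alternatives, the replicate block, quantile normalization and equal medians among both.

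Of 15 measured transcription regulators that are known to act on genes of the family, 10 were higher and 4 lower in LPS plus PGE against untreated. In LPS against untreated 11 were higher and 1 lower. All-gene shares were 13.8% higher and 17.9% lower in the first comparison, and 6.55% and 6.69% in the second. Under each other scaling 3 regulators were lower in the first. The 1 lower in the second was Maf (-0.27, limma adjusted p = 0.0447), a call lost in 13 of 21 alternatives. The largest changes in LPS plus PGE were those of Nfkbiz (5.55 ± 0.11), which encodes a nuclear NF-kB cofactor, Nfil3 (4.20 ± 0.09), Fos (3.35 ± 0.12) and Ets2 (3.31 ± 0.07). In LPS alone they were those of Nfkbiz (5.57 ± 0.12), Fos (2.60 ± 0.13), Irf1 (2.58 ± 0.09) and Ets2 (2.38 ± 0.07). In LPS plus PGE against LPS 5 were higher and 4 lower, with a list median of -0.11 beside -0.0045 over all genes. There 11.9% of all genes passed as higher and 12.9% as lower, and other scalings left 2 to 4 of these regulators lower. Nfil3, a basic leucine zipper factor known as a repressor of Il12b, averaged 10.83 ± 0.09, 7.03 ± 0.14 and 6.63 ± 0.14 (SD) in LPS plus PGE, LPS and untreated arrays, so that the rise with PGE over LPS was 3.81 ± 0.09 (limma adjusted p = 3.36e-10).

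Irf1, an interferon regulatory factor known to act on Il12a and Il27, averaged 10.98 ± 0.17, 11.96 ± 0.09 and 9.38 ± 0.05 (SD) in LPS plus PGE, LPS and untreated arrays, and was lower with PGE than with LPS alone (-0.98 ± 0.09, limma adjusted p = 2.44e-05). Ets2 was higher (0.92 ± 0.07) and Atf3, a stress-induced repressor of cytokine genes, lower (-0.88 ± 0.10), with adjusted p-values of 6.56e-06 and 0.000143. Against untreated, Atf3 was higher with LPS alone (0.48 ± 0.10, limma adjusted p = 0.0058). With LPS plus PGE it was below untreated (-0.40 ± 0.09, limma adjusted p = 0.0056). Rel, the NF-kB subunit c-Rel, was higher with LPS plus PGE than with LPS (0.31, limma adjusted p = 0.0132), and Nfkbiz did not pass (-0.01, adjusted p = 0.94). The calls of Irf8 and of Spi1, which encodes PU.1, as lower (adjusted p = 0.0339 and 0.0426) were lost in 10 and 14 of 21 alternatives. Whether any of these genes bears on the changes of the family was not tested.

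Of 8 measured prostaglandin E receptor and cyclic AMP feedback genes, 3 were higher and 4 lower in LPS plus PGE against LPS. In LPS plus PGE against untreated 5 were higher and 1 lower, and in LPS against untreated 3 were higher and 2 lower. All-gene shares higher and lower were, in the same order, 11.9% and 12.9%, 13.8% and 17.9%, and 6.55% and 6.69%. The kinase gene Sik1 (2.26 ± 0.09), the cyclic AMP-responsive repressor Crem (1.48 ± 0.09) and the phosphodiesterase Pde4b (0.47 ± 0.09) were higher with PGE than with LPS alone, with limma adjusted p-values of 2.69e-08, 1.505e-06 and 0.00522. The receptor gene Ptger4 was lower there (-0.60 ± 0.09, limma adjusted p = 0.00116), although it was above untreated in LPS plus PGE (1.32 ± 0.08) and in LPS arrays (1.93 ± 0.09). Against untreated, Sik1 was lower with LPS alone (-0.64 ± 0.09) and higher with LPS plus PGE (1.62 ± 0.09). Pde4b was higher with LPS alone (2.93 ± 0.09) and with LPS plus PGE (3.39 ± 0.09). Crem was higher with LPS plus PGE (1.48 ± 0.09) and did not pass with LPS alone (0.0036). With quantile or cyclic loess normalization the split in LPS plus PGE against LPS was 4 higher and 2 lower, and with equal array medians that in LPS against untreated was 5 higher and 1 lower.

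**Figure D4:**
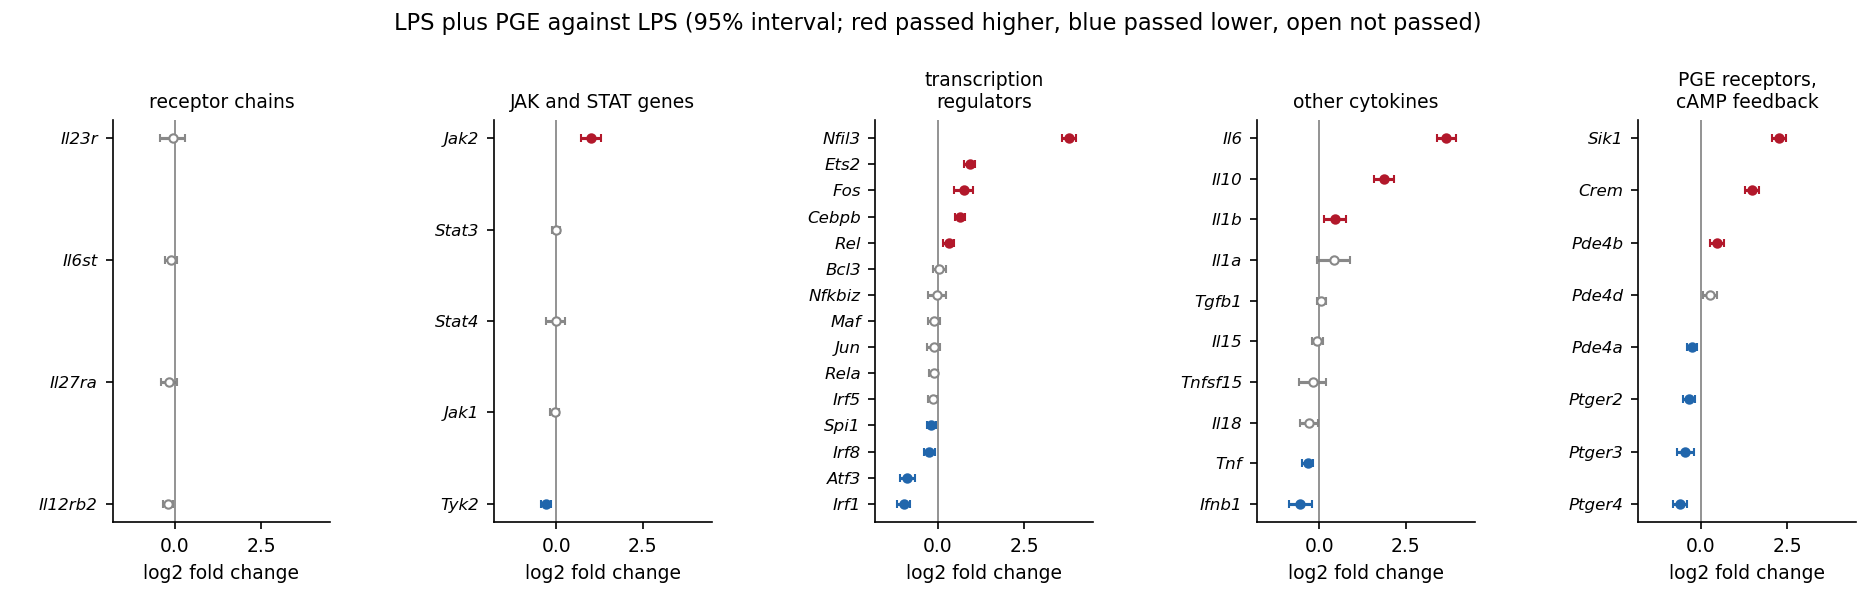
Log2 fold change with its 95% interval in LPS plus PGE against LPS for the measured receptor chains, JAK and STAT genes, transcription regulators, other cytokines and prostaglandin E or cyclic AMP feedback genes; red points passed as higher, blue as lower and open points did not pass. Nfil3 (3.81), Il6 (3.68) and Sik1 (2.26) lie farthest to the right. No receptor chain passed, beside 24.7% of all genes.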

How the data were processed

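Whole-transcript arrays (Affymetrix mouse gene 1.1 ST) of 11 macrophage samples were measured from 250 ng of total RNA each. The authors deposited log2 expression values. The log2 scale was inferred from their range, 1.20 to 13.81, and from RMA, which the submitters' processing notes name beside Affymetrix Power Tools, R 2.13.1 and Partek. Raw array files were not used here, and for the genome build nothing is given in the sources used here. Of 35309 probe sets, 21143 carried 1 gene symbol in the platform annotation, 1870 several and 12296 none. The highest-mean probe set of each gene gave 18755 genes.

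A group-means model was fitted with limma 3.58.1 in R 4.3.3 (8 residual and 3.77 prior degrees of freedom), with two-sided tests, Benjamini-Hochberg adjustment over all genes and a threshold of 0.05. The fit was tested on simulated data. Python 3.11.15 and matplotlib 3.10.9 made the descriptions and figures. Promoter windows came from RefSeq's GRCm38.p6 table, which matched 3 of the 5 members. The number of arrays limits the precision. Members and lists were chosen with earlier results of these data known. Named genes were the members, Il6, Il10 and Tnf, up to 4 passing genes with the largest changes of each list, and the 3 genes nearest in profile to each member changed at least 2-fold, leaving out predicted, microRNA, small nucleolar RNA and olfactory receptor genes. Rel, Nfkbiz, Irf8, Spi1, Maf, Jak1, Stat3, Stat4, Jak2 and Crem in LPS against untreated, and Atf3 in the comparisons with untreated, were named in addition after their values were seen. So were the cell type markers and the receptor genes that did not pass. The alternatives were other normalizations, variance models, array weights, feature sets, thresholds, a block for the replicate number, and leaving out every array in turn. Nothing in the labels pairs arrays by number, and the tests were unpaired.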

Additional observations from a re-analysis of the deposited data

Results flagged for a closer look

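Of 66 groups of 4 arrays examined over 33 genes, 5 held 1 array far from the other three relative to the group's range (a share above 0.829), and chance gives about 1 in 20. None was a subunit gene, and the 3 LPS arrays were too few for the comparison. Il6st was lowest in LPS plus PGE replicate 1 at 10.62, with a share of 0.875. Ptger2 was lowest in LPS plus PGE replicate 4 at 6.29 (0.92). Il10 was highest in LPS plus PGE replicate 1 at 11.98 (0.879), and Tnfaip3 in LPS plus PGE replicate 3 at 12.18 (0.836). Atf3 was lowest in untreated replicate 1 at 12.04 (0.844).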

How the results depend on the processing

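Il23a and Il12b kept direction and call in all 3 comparisons under every alternative run. Il27 did so in LPS against untreated, and Ebi3 in LPS plus PGE against untreated except at a 2-fold threshold (0.5193). The cause of the changes below was not tested. With 3 or 4 arrays a group the precision is limited, and no background level was measured for the dim genes.

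In LPS plus PGE against LPS, Il12a turned to -0.0594 with quantile and -0.0668 with cyclic loess normalization, passing in neither. Il27 there was -0.6192 (limma adjusted p = 0.0683) and -0.694 (0.0537), so 1 member passed as lower, and -0.7118 was below 2-fold. Ebi3 there did not pass with equal medians (0.2178), array weights (0.2277), the 2 groups alone, all probe sets or a 2-fold threshold (0.2507 each), leaving 1 member higher. With dim genes left out, Il27 and Il12a gave no value and 1 member was lower. In LPS against untreated Ebi3 passed with equal medians (0.383), cyclic loess (0.2928), the replicate block (0.2966), and trend and robust variance, the 2 groups alone and dim genes left out (0.2686 each). In LPS plus PGE against untreated Il27 did not pass over all probe sets (0.5636) or at 2-fold, where 2 members were higher.

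Gene counts in LPS plus PGE against untreated were 2587 higher and 3359 lower as deposited, 2596 and 2206 with quantile, 4499 and 2119 with equal medians, 2129 and 1788 (3917 in all) with cyclic loess, and 999 and 3720 with dim genes left out. For LPS against untreated they were 1229 and 1254 as deposited and 2747 and 613 with equal medians, and 2207 were lower over all probe sets, where 5135 were lower in LPS plus PGE against untreated. For LPS plus PGE against LPS they were 2225 and 2416 as deposited, 1205 and 1155 (2360) with quantile, 1804 and 3004 with equal medians, 1085 and 1038 (2123) with cyclic loess and 503 and 2842 with dim genes left out. At 2-fold the counts were 557 (349 higher, 208 lower), 362 (294, 68) and 134 (106, 28), the last with 1 member each way. Leaving dim genes out moved the all-gene median to -0.1112 and -0.1107 in the comparisons with PGE.

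With each array left out, LPS plus PGE against untreated gave 0.1371 to 0.3786 for Il12a and 0.5027 to 0.638 for Il27, and LPS against untreated 0.2321 to 0.3036 for Ebi3. LPS plus PGE against LPS gave -0.9337 to -0.4159 for Il27, 0.2085 to 0.321 for Ebi3, 2945 to 4455 genes (fewest without LPS replicate 3), 1412 to 2324 lower, and 1 to 2 members each way. Same-numbered arrays correlated at -0.02 to 0.207 in their deviations, over 0.1 in 7 of 10 pairs, and differently numbered ones at -0.138 to 0.095. The replicate block gave 6124, 2454 and 4698 genes and changed no member call but that of Ebi3 above.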
